A study of Mus musculus with 14 samples.

Results

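The genes of the sarcomere and of muscle contraction were examined in RNA-seq data of mouse forelimb bud cells. The set holds 40 genes, chosen by name, of 24454 genes in the count table. It comprises 7 sarcomeric myosin heavy chains, 5 sarcomeric myosin light chains and *Myl9*, 8 troponins, 4 myosin-binding proteins, 3 actins, 4 tropomyosins, *Ttn*, *Neb*, *Des*, *Ckm*, *Chrna1*, *Mef2c*, *Actn2* and *Actn3*. The question was how far these genes are expressed in the muscle precursors of the early forelimb bud, and where else in the bud their transcripts are found.

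In a sarcomere, thick filaments of myosin slide along thin filaments of actin. Tropomyosin lies along the thin filament and is moved by the troponin complex, in which troponin C binds calcium, troponin I inhibits and troponin T anchors the complex to tropomyosin. Limb muscle arises from *Pax3*-expressing precursors that migrate from the somites into the bud and later activate *Myf5*, *Myod1* and *Myog*, whereas cartilage, tendon and muscle connective tissue arise from the limb mesenchyme. Several of the 40 genes are not restricted to skeletal muscle: tropomyosins, *Myl9* and *Acta2* also serve smooth muscle or the cytoskeleton of non-muscle cells, and *Myh6*, *Myl7*, *Tnni3* and *Mybpc3* are known from the heart.

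All 14 libraries were from embryos with the *Sox9* IRES-EGFP reporter allele on a mixed Swiss Albino background, with both sexes pooled. Cells were sorted by FACS after removal of dead cells and of cells with endothelial, blood or epithelial surface markers, and S9- or S9+ denotes absence or presence of EGFP. The 5 populations were S9-JAG1+ limb bud mesenchymal progenitors (LMPs), which carry the NOTCH ligand JAG1 (E10.5, n = 3), S9-Pαhi LMPs with high PDGFRα (E10.5, n = 3), S9+Pαhi osteo-chondrogenic progenitors (OCPs, E10.5, n = 3), *Col2a1*-expressing S9+Pαhi chondroblasts (CBs, E11.5, n = 3) and S9-SCA-1+ cells (E10.5, n = 2, replicates 2 and 3). Each library was made from the pooled cells of many forelimb buds. The study calls the libraries biological replicates and states that sequencing quality was sufficient for only 2 S9-SCA-1+ samples. The labels do not say whether the pools of a population came from separate collections, so that p-values measure the spread between these libraries. CBs were the only population at E11.5, and for them stage and population cannot be told apart.

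The libraries held 20316583 to 29162751 counts. Levels are given as counts per 1000000 of the scaled library totals (CPM), and 1 CPM equalled 20.1 to 29.7 counts. Up to 3 counts were taken as the floor that cannot be told from absence, which was 0.101 to 0.149 CPM and covers counting error only. The summed level of 6 markers of skeletal muscle precursors (*Pax3*, *Pax7*, *Lbx1*, *Met*, *Myf5*, *Myod1*) was 1496 and 1500 CPM in the 2 S9-SCA-1+ libraries and 1.93 to 10.7 CPM in the other 12. Red blood cell transcripts, summed over 7 markers, stood at 2679 CPM in S9-SCA-1+ replicate 3, at 96.9 CPM in replicate 2 and at 2.46 to 71.0 CPM elsewhere. In bulk libraries, fewer cells of a type and less RNA per cell cannot be told apart.

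The upstream sequences of the 5 contractile genes with the largest fitted fold among those higher in S9-SCA-1+ cells are shown because the myogenic factors bind E-boxes (CANNTG). The rank of *Mybph* among them depends on the prior count of the fit, since 3 of the populations it was compared with were at the floor. Each line gives the 250 bases before the transcription start in the RefSeq table (GRCm38), 5′ to 3′ on the strand of the gene, with E-boxes in capitals. For *Mybpc1*, *Mybph* and *Tpm2* this start lies inside the outermost bounds of the annotated gene. For *Des*, only 2 runs of 12 bases just after this start occurred in GENCODE transcripts of the gene. For each of the other 4 genes, 36 to 39 such runs did. The windows are chr10:88605153-88605402 (minus strand) for *Mybpc1*, chr1:134193198-134193447 (plus) for *Mybph*, chr4:43523555-43523804 (minus) for *Tpm2*, chr1:75360042-75360291 (plus) for *Des* and chr7:4515976-4516225 (minus) for *Tnnt1*.
Mybpc1: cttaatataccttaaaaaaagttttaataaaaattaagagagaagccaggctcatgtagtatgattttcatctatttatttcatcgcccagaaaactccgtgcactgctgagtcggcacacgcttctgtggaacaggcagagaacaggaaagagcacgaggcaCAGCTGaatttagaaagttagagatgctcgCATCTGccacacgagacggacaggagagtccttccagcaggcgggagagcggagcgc
Mybph: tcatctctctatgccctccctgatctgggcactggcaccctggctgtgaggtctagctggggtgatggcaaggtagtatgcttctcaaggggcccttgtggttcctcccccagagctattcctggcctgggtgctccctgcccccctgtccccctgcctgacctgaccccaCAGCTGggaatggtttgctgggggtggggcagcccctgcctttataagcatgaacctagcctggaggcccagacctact
Tpm2: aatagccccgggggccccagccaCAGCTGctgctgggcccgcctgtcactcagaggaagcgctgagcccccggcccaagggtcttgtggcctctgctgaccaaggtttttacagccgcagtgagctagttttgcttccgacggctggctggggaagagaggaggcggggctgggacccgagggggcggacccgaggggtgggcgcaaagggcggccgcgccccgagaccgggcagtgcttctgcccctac
Des: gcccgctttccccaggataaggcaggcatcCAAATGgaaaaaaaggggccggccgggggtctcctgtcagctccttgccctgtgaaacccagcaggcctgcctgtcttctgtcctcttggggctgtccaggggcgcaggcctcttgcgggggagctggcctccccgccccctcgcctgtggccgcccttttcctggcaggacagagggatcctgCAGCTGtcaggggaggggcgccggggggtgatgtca
Tnnt1: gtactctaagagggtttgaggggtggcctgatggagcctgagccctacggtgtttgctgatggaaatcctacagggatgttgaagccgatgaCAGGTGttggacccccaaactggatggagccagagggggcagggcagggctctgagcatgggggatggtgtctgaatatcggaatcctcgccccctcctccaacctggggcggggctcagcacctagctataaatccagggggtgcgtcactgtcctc
The sequence CAGCTG, an E-box that reads the same on both strands, occurred in 4 of these 5 windows, and the window of *Tnnt1* held CAGGTG, the reverse strand of CACCTG. A window was present in the table for 36 of the 40 genes (not for *Actn3*, *Neb*, *Tnni2* and *Tnnt3*). Of the 8 genes with a window that passed as higher in S9-SCA-1+ cells against the mean of the other populations, 7 held an E-box, 4 held CAGCTG, 2 held CACCTG on either strand, 1 a MEF2 site and 1 a CArG box. Among the 28 others these numbers were 23, 11, 8, 4 and 5. A gene was counted if any of its windows held the motif, and 6 of the 36 genes had 2 or 3 windows. Counted in the same way over all 27025 genes in the table, 69.3% held an E-box, 14.7% CAGCTG, 19.4% CACCTG, 3.42% a MEF2 site and 1.62% a CArG box. Over all 32851 single windows the shares were 66.2%, 13%, 17.2%, 2.92% and 1.47%. The 2 hexamers are themselves E-boxes and are counted under both. Such a match describes the letters in the window and not a bound site.

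Most of the contractile genes were low in every population. A mean of at least 1 CPM in at least 1 population was reached by 17 of the 40, and 13 of the 40 reached it in S9-SCA-1+ cells. Another 16 genes had too few counts to be tested, with 19 counts as the highest value among all their libraries, and 5 of these never exceeded 3 counts. In both S9-SCA-1+ libraries 12 of the 40 were at or below 3 counts. Among the 17 expressed genes the highest mean was found in S9-SCA-1+ cells for 6, in CBs for 6, in S9-JAG1+ LMPs for 4 and in OCPs for 1. Some of these ranks were close or rested on 1 library. *Tnni3* had a mean of 2.76 CPM in OCPs and 2.29 CPM in CBs, and *Acta2* 1.74 CPM in CBs and 1.69 CPM in S9-JAG1+ LMPs. When the 4 tropomyosins were left out, the contractile genes summed to 157 and 162 CPM in S9-SCA-1+ cells, 70.4 to 81.1 CPM in CBs and 26.2 to 42.4 CPM in the 9 other libraries. Most of the S9-SCA-1+ sum was *Mybpc1*: with this gene also left out, the sums were 45.8 and 51.4 CPM in S9-SCA-1+ cells, below the 70.3 to 80.7 CPM of CBs and above the 25.8 to 41.9 CPM of the 9 others.

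**Figure D1:**
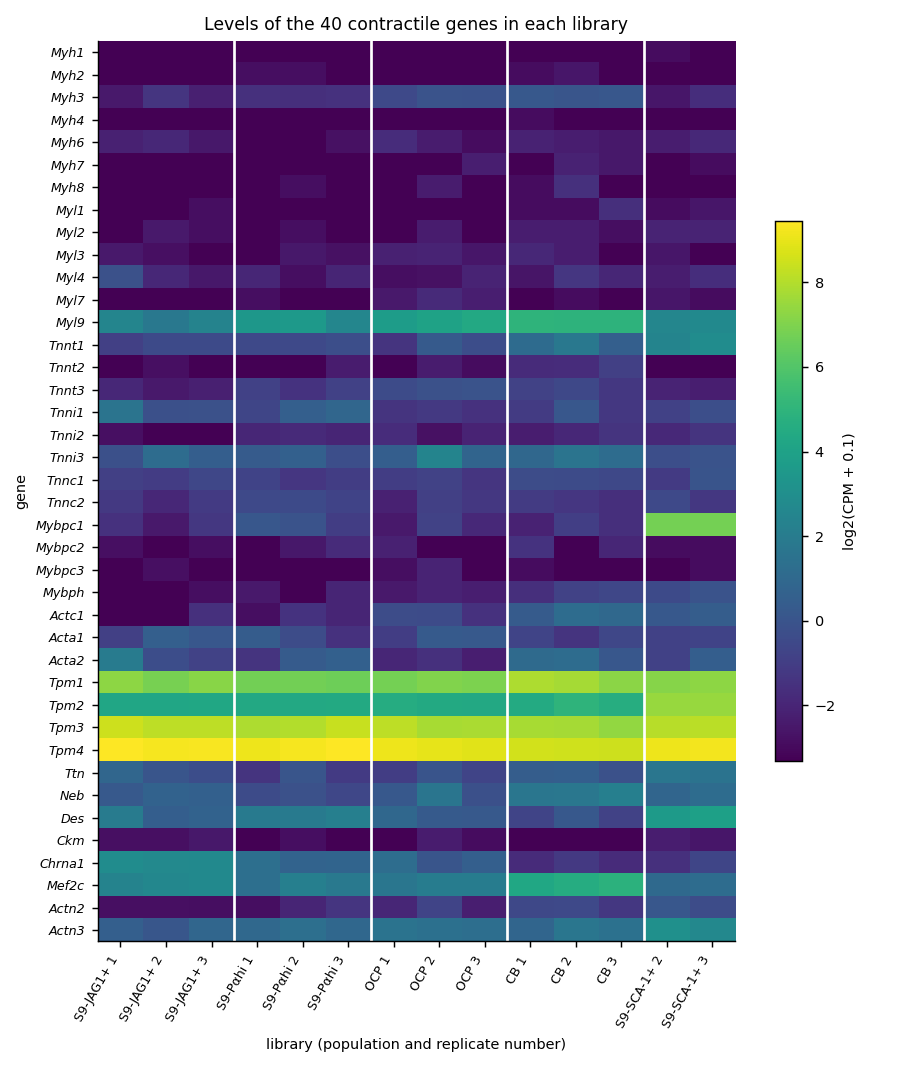
Heat map of the level of each of the 40 contractile genes (rows) in each of the 14 libraries (columns, white lines between populations), as log2(CPM + 0.1). The 4 tropomyosins were high in every library, *Mybpc1* was high in the 2 S9-SCA-1+ libraries alone, and most sarcomeric myosins were near the floor in all populations.

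Thick filament genes other than the myosin-binding proteins were near the floor. The 7 myosin heavy chains together had 18 counts in the 2 S9-SCA-1+ libraries (0.319 ± 0.154 CPM, SD, n = 2), against 111 counts in the 3 CB libraries (1.31 ± 0.149 CPM, n = 3). *Myh3*, the embryonic heavy chain that is among the first in developing muscle, was the only tested one: it had 2 and 6 counts in S9-SCA-1+ cells, 2, 7 and 3 in S9-JAG1+ LMPs, 6, 6 and 5 in S9-Pαhi LMPs, 15, 18 and 23 in OCPs and 31, 27 and 26 in CBs. The CB and OCP libraries were thus all above the other populations. *Myh1*, *Myh2*, *Myh4*, *Myh6*, *Myh7* and *Myh8*, the adult, cardiac and perinatal heavy chains, had at most 7 counts in any library. Of these 7 genes, 4.76% (*Myh3*) to 26.9% (*Myh2*) of the 50-base runs of their transcripts also occur in other genes, mostly other heavy chains, so that their counts are uncertain among each other. The 5 sarcomeric light chains (*Myl1*, *Myl2*, *Myl3*, *Myl4*, *Myl7*) had 0 to 6 counts in S9-SCA-1+ cells, and the highest value anywhere was 19 counts of *Myl4* in S9-JAG1+ replicate 1.

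*Mybpc1*, the slow skeletal form of myosin-binding protein C, which tethers the thick filament, was the exception. It had 111 and 110 CPM (3167 and 3095 counts) in S9-SCA-1+ cells, 0.257, 0.0838 and 0.317 CPM in S9-JAG1+ LMPs, 1.02, 0.865 and 0.398 CPM in S9-Pαhi LMPs, 0.0811, 0.475 and 0.181 CPM in OCPs and 0.135, 0.411 and 0.236 CPM in CBs. The 12 other libraries had at most 25 counts, and the S9-SCA-1+ mean was 145 times that of the next population, S9-Pαhi LMPs. Set against the mean of the other 4 populations, it had a log2 fold change of 8.41 (SE 0.19; adjusted p = 6.03e-13, Benjamini-Hochberg, by the quasi-likelihood test of edgeR). No 50-base run of *Mybpc1* occurs in another annotated transcript. The related *Mybph* had 18 and 24 counts in S9-SCA-1+ cells, 7, 14 and 14 in CBs and 0 to 3 in all other libraries. Its S9-SCA-1+ libraries were above all others, but no fold is given because 3 of the compared populations were at the floor, and 49.9% of its exon bases overlap *Adora1* on the opposite strand while the use of strand in the counting is not stated. The fast and cardiac forms, *Mybpc2* and *Mybpc3*, had at most 8 and 3 counts in any library.

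The 4 tropomyosins had the highest levels for their length in S9-SCA-1+ cells. On that scale, in CPM per kilobase of the tabulated length (RPKM), the S9-SCA-1+ means were 279 for *Tpm4*, 82.3 for *Tpm3*, 53.4 for *Tpm2*, 45.3 for *Tpm1* and 27.8 for *Mybpc1*. Only 3 other contractile genes passed 3 RPKM in these cells, namely *Tnnt1* (6.09), *Myl9* (5.67) and *Des* (4.47). *Tpm2*, which encodes β-tropomyosin, had 176 and 179 CPM in S9-SCA-1+ cells, 18.8, 18.6 and 19.2 CPM in S9-JAG1+ LMPs, 21.1, 20.6 and 21.7 CPM in S9-Pαhi LMPs, 24, 21.9 and 20.8 CPM in OCPs and 22, 31.6 and 24.8 CPM in CBs. It was the only tropomyosin to pass the limits of fold and p in any comparison, with a log2 fold change of 3.02 (SE 0.08; edgeR adjusted p = 4.11e-12) against the mean of the other 4.

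The other tropomyosins were spread over all populations. *Tpm1* had 140 and 157 CPM in S9-SCA-1+ cells, 156, 115 and 147 CPM in S9-JAG1+ LMPs, 105, 106 and 98.5 CPM in S9-Pαhi LMPs, 110, 130 and 121 CPM in OCPs and 233, 214 and 151 CPM in CBs. *Tpm3* had 268 and 282 CPM in S9-SCA-1+ cells, 352, 286 and 294 CPM in S9-JAG1+ LMPs, 238, 254 and 338 CPM in S9-Pαhi LMPs, 294, 221 and 224 CPM in OCPs and 220, 212 and 165 CPM in CBs. For both, the S9-SCA-1+ values lay within the range of the other libraries. For *Tpm3*, 40% of the 50-base runs also occur in other genes, mostly copies of *Tpm3* itself, and its counts are uncertain. *Tpm4* had 565 and 595 CPM in S9-SCA-1+ cells, 701, 616 and 634 CPM in S9-JAG1+ LMPs, 551, 625 and 693 CPM in S9-Pαhi LMPs, 564, 507 and 465 CPM in OCPs and 388, 366 and 360 CPM in CBs. All 3 CB libraries were below all others, and the log2 fold change of CBs against OCPs was -0.46 (edgeR adjusted p = 0.00284), under the fold limit.

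The 3 actins stayed low. *Actc1*, the cardiac α-actin that is also the early form in embryonic skeletal muscle, had 30 and 35 counts in S9-SCA-1+ cells (1.05 and 1.25 CPM), 35, 65 and 49 counts in CBs (1.18, 2.22 and 1.92 CPM), 17, 14 and 7 counts in OCPs (0.689, 0.666 and 0.253 CPM), 1, 7 and 3 counts in S9-Pαhi LMPs and 0, 0 and 6 counts in S9-JAG1+ LMPs. S9-SCA-1+ cells overlapped with CBs and were above all E10.5 libraries, with a log2 fold change of 2.57 (SE 0.55; edgeR adjusted p = 0.00254) against the mean of the 3 E10.5 populations. *Acta1*, the skeletal α-actin of mature muscle, had 5 to 33 counts in all libraries and 13 and 14 in S9-SCA-1+ cells, and passed no comparison. *Acta2*, the smooth muscle α-actin, had 0.455 and 1.32 CPM in S9-SCA-1+ cells, 3.90, 0.712 and 0.476 CPM in S9-JAG1+ LMPs, 0.285, 1.17 and 1.39 CPM in S9-Pαhi LMPs, 0.162, 0.238 and 0.108 CPM in OCPs and 2.02, 2.19 and 1.02 CPM in CBs. OCPs were below all other libraries, and S9-JAG1+ replicate 1 stood above the rest.

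Of the 8 troponins, only *Tnnt1* was called higher in S9-SCA-1+ cells. This slow skeletal troponin T had 5.35 and 7.19 CPM in S9-SCA-1+ cells, 0.428, 0.628 and 0.634 CPM in S9-JAG1+ LMPs, 0.610, 0.602 and 0.747 CPM in S9-Pαhi LMPs, 0.284, 1.14 and 0.723 CPM in OCPs and 2.12, 3.32 and 1.37 CPM in CBs. The S9-SCA-1+ libraries were above the CBs, and the CBs above all other libraries, with a log2 fold change of 2.83 (SE 0.29; edgeR adjusted p = 2.95e-06) for S9-SCA-1+ cells against the mean of the other 4. The slow troponin I, *Tnni1*, and the slow and cardiac troponin C, *Tnnc1*, differed from it: their means in S9-SCA-1+ cells were 0.601 ± 0.207 and 0.620 ± 0.382 CPM (SD, n = 2), and neither was called against the other 4 (edgeR adjusted p = 0.737 and 0.343). *Tnni1* had 0.455 and 0.748 CPM there, 2.95, 0.754 and 0.793 CPM in S9-JAG1+ LMPs, 0.529, 1.35 and 1.74 CPM in S9-Pαhi LMPs, 0.284, 0.333 and 0.253 CPM in OCPs and 0.370, 0.992 and 0.314 CPM in CBs. *Tnni3*, the cardiac troponin I, had 0.734 and 0.855 CPM in S9-SCA-1+ cells, 0.770, 2.18 and 1.31 CPM in S9-JAG1+ LMPs, 1.18, 1.39 and 0.747 CPM in S9-Pαhi LMPs, 1.30, 5.32 and 1.66 CPM in OCPs and 1.82, 2.91 and 2.16 CPM in CBs. The fast troponin T, *Tnnt3*, was low throughout, with 4 and 3 counts in S9-SCA-1+ cells and a highest value of 24 counts in an OCP library. *Tnnc2*, *Tnni2* and the cardiac *Tnnt2* had at most 17, 8 and 11 counts in any library, and 74% of the exon bases of *Tnnc2* overlap *Ube2c* on the opposite strand.

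Elastic, anchoring and intermediate filament genes were higher in S9-SCA-1+ cells in part. *Des*, the intermediate filament protein that joins neighbouring myofibrils, had 12.4 and 15 CPM there, 3.94, 1.30 and 1.51 CPM in S9-JAG1+ LMPs, 3.70, 3.76 and 4.53 CPM in S9-Pαhi LMPs, 1.82, 1.14 and 1.08 CPM in OCPs and 0.504, 1.06 and 0.471 CPM in CBs. The S9-SCA-1+ libraries were above all others, and the log2 fold change against the mean of the other 4 was 3.01 (SE 0.27; edgeR adjusted p = 9.55e-07). *Ttn*, the giant elastic protein that spans from Z disc to M line, had 3.11 and 2.81 CPM in S9-SCA-1+ cells, 1.75, 0.922 and 0.713 CPM in S9-JAG1+ LMPs, 0.285, 0.940 and 0.349 CPM in S9-Pαhi LMPs, 0.406, 0.903 and 0.506 CPM in OCPs and 1.28, 1.30 and 0.785 CPM in CBs. Its S9-SCA-1+ libraries did not overlap with the others (log2 fold change 1.89, SE 0.34; edgeR adjusted p = 6e-04), although the level per length was only 0.0284 RPKM.

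The actinins cross-link actin at the Z disc. *Actn3*, the form of fast fibres, had 8.46 and 6.09 CPM in S9-SCA-1+ cells, 1.37, 0.964 and 1.74 CPM in S9-JAG1+ LMPs, 1.87, 2.48 and 1.79 CPM in S9-Pαhi LMPs, 2.80, 2.57 and 2.35 CPM in OCPs and 1.68, 3.15 and 2.63 CPM in CBs. Both S9-SCA-1+ libraries were above the other 12, which overlapped among themselves, with a log2 fold change of 1.82 (SE 0.21; edgeR adjusted p = 9.75e-06). *Actn2* had 29 and 19 counts in S9-SCA-1+ cells, 17, 18 and 8 in CBs, 3 to 11 in OCPs, 1 to 6 in S9-Pαhi LMPs and 1 in each S9-JAG1+ library. It was also called higher, and no fold is given because S9-JAG1+ LMPs were at the floor. *Neb*, which lies along the thin filament, did not follow: it had 1.68 and 2.21 CPM in S9-SCA-1+ cells, 1.07, 1.51 and 1.39 CPM in S9-JAG1+ LMPs, 0.650, 0.790 and 0.548 CPM in S9-Pαhi LMPs, 1.05, 3.00 and 0.759 CPM in OCPs and 3.13, 3.25 and 4.48 CPM in CBs, where all 3 libraries were above all others. *Ckm*, the muscle creatine kinase of mature fibres, had at most 3 counts in any library.

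**Figure D2:**
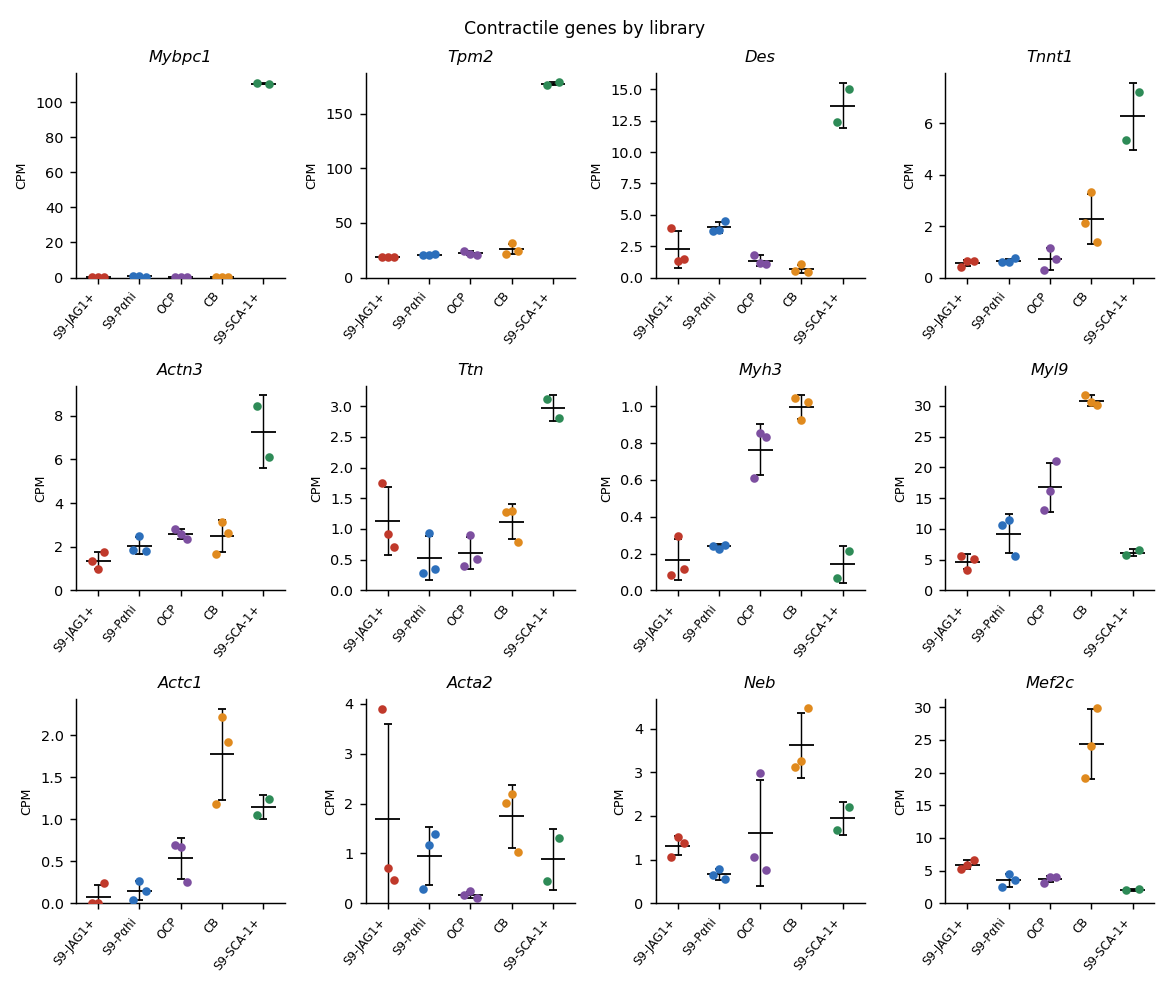
Level in CPM (linear axes from 0) of 12 contractile genes in the 5 populations; points are libraries, horizontal lines the mean and error bars the SD (n = 3, or n = 2 for S9-SCA-1+). In the top row and for *Actn3* and *Ttn* the S9-SCA-1+ libraries were above all others, whereas *Myh3*, *Myl9*, *Neb* and *Mef2c* were highest in CBs.

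Against the mean of the other 4 populations, 9 of the 24 tested contractile genes passed as higher in S9-SCA-1+ cells (*Mybpc1*, *Mybph*, *Tpm2*, *Des*, *Tnnt1*, *Actn2*, *Ttn*, *Actn3*, *Actc1*) and 4 lower (*Chrna1*, *Mef2c*, *Myh3*, *Tnnt3*). A call needed an adjusted p not above 0.1 together with a log2 fold change of 1.2 or more in size, and 4.46% of all 15125 tested genes were called higher and 6.8% lower. The median log2 fold change was 0.26 over the 24 and -0.01 over all tested genes. *Actc1* was not called without S9-SCA-1+ replicate 3, the library with the red blood cell transcripts (1.64, edgeR adjusted p = 0.123), nor was *Tnnt3* (-1.34, adjusted p = 0.157). *Myh3* was not called without S9-SCA-1+ replicate 2 (-0.95, edgeR adjusted p = 0.257). *Mybpc1*, *Tpm2*, *Des*, *Tnnt1*, *Ttn* and *Actn3* were above all other populations in both S9-SCA-1+ libraries. So were the summed red blood cell markers, at 96.9 and 2679 CPM against 2.46 to 71.0 CPM elsewhere. The part of red blood cells in these results was not tested.

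Against the 3 other E10.5 populations alone, the 9 genes called higher were the same, and 2 were called lower, *Chrna1* (log2 fold change -2.77, SE 0.38; edgeR adjusted p = 6.97e-05) and *Tnnt3* (-1.40, SE 0.47; edgeR adjusted p = 0.0350). Of all tested genes 4.97% were called higher and 5.47% lower in this comparison. *Tnnt3* was not called without S9-SCA-1+ replicate 2 (-1.60, edgeR adjusted p = 0.134) or replicate 3 (-1.23, adjusted p = 0.244). The median log2 fold change was 0.39 over the 24 contractile genes and -0.01 over all. *Tnnt1* differed by 3.29 (SE 0.31; edgeR adjusted p = 1.43e-06) and *Des* by 2.58 (SE 0.29; edgeR adjusted p = 8.68e-06) on the log2 scale.

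Against CBs, 6 contractile genes passed as higher in S9-SCA-1+ cells and 5 lower, beside 5.56% and 13.9% of all tested genes. Higher were *Mybpc1*, *Des* (log2 fold change 4.32, SE 0.43; edgeR adjusted p = 1.70e-06), *Tpm2*, *Actn3*, *Tnnt1* (1.46, SE 0.38; edgeR adjusted p = 0.00466) and *Ttn*, and lower were *Mef2c*, *Myh3* (-2.77, SE 0.50; edgeR adjusted p = 0.000320), *Myl9*, *Tnnt3* and *Tnni3*. *Tnni3* was not called without either S9-SCA-1+ library (edgeR adjusted p = 0.160 without replicate 2 and 0.117 without replicate 3) or without CB replicate 2 (0.105). *Mybph*, *Actc1* and *Actn2*, higher than in the E10.5 populations, were not called against CBs. The 6 muscle precursor markers summed to 8.68 to 10.7 CPM in CBs.

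**Figure D3:**
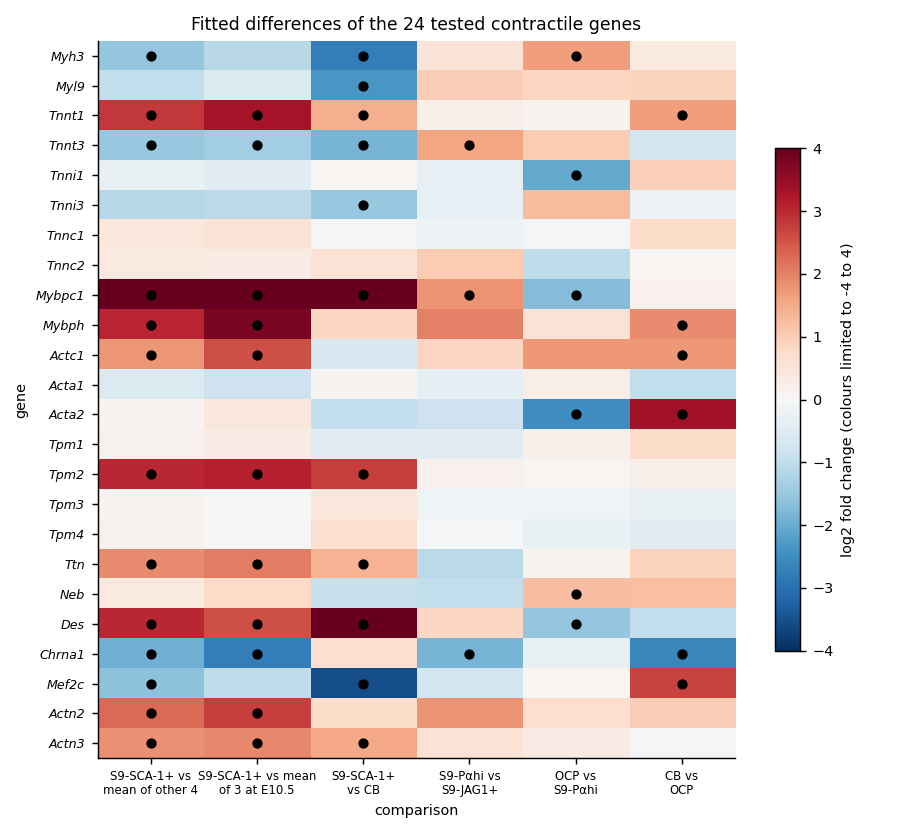
Fitted log2 fold change (colour, limited to -4 to 4) of the 24 tested contractile genes (rows) in the 6 comparisons (columns); black dots mark genes that passed both limits (adjusted p up to 0.1, log2 fold change of 1.2 or more in size). Calls in S9-SCA-1+ cells went in both directions, and values of *Mybph*, *Actn2* and other genes at the floor depend on the prior count of the fit.

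*Mef2c*, a transcription factor that acts with the myogenic factors and also in cartilage, was highest in CBs. It had 19.1, 24.1 and 29.9 CPM there, 5.22, 5.91 and 6.62 CPM in S9-JAG1+ LMPs, 2.48, 4.55 and 3.54 CPM in S9-Pαhi LMPs, 3.16, 4.04 and 3.98 CPM in OCPs and 1.99 and 2.21 CPM in S9-SCA-1+ cells. The S9-SCA-1+ libraries were below all others, with a log2 fold change of -3.53 (SE 0.27; edgeR adjusted p = 1.36e-07) against CBs. *Myl9*, the regulatory light chain of smooth and non-muscle myosin, had 31.8, 30.6 and 30.2 CPM in CBs, 13.1, 16.2 and 21.0 CPM in OCPs, 10.6, 11.4 and 5.63 CPM in S9-Pαhi LMPs, 5.52, 3.31 and 5.15 CPM in S9-JAG1+ LMPs and 5.70 and 6.59 CPM in S9-SCA-1+ cells. The CBs were above the OCPs and the OCPs above all other libraries, and S9-SCA-1+ cells differed from CBs by -2.33 (SE 0.29; edgeR adjusted p = 1.25e-05). No neighbouring step from S9-JAG1+ LMPs to CBs passed the fold limit for *Myl9*, with log2 fold changes of 0.99, 0.85 and 0.88 (edgeR adjusted p = 0.0120, 0.0314 and 0.0125).

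*Chrna1*, the ligand-binding α subunit of the muscle acetylcholine receptor, had 7.36, 6.37 and 6.58 CPM in S9-JAG1+ LMPs, 2.40, 1.58 and 1.64 CPM in S9-Pαhi LMPs, 2.23, 0.951 and 1.37 CPM in OCPs, 0.202, 0.342 and 0.196 CPM in CBs and 0.245 and 0.534 CPM in S9-SCA-1+ cells. The S9-JAG1+ libraries were above all others, and S9-SCA-1+ cells and CBs were below the rest. The mean in S9-JAG1+ LMPs was 3.61 times that in S9-Pαhi LMPs, the next population. The partner subunits differed: *Chrnb1* had 100 and 117 counts in S9-SCA-1+ cells, 57 to 73 in CBs, 18 to 34 in OCPs and 0 to 12 in both LMP populations, and *Chrnd* had 56 and 71 counts in those cells and never over 6 elsewhere. *Chrng*, the subunit of the fetal receptor, had 44 and 20 counts and *Rapsn*, which clusters the receptor, 36 and 21 counts in S9-SCA-1+ cells, with at most 3 and 8 counts in other libraries. *Chrng* and *Rapsn* were singled out after their values were seen. All 4 passed as higher in S9-SCA-1+ cells when set against the mean of the other 4, with a log2 fold change of 2.91 (SE 0.38; edgeR adjusted p = 3.38e-05) for *Chrnb1*, against -1.92 (SE 0.38; edgeR adjusted p = 0.00126) for *Chrna1*. *Chrnd*, *Chrng* and *Rapsn* passed the filter on low counts only because of the S9-SCA-1+ libraries, so that a call as lower was not possible for them. Of other synapse genes, *Dok7* was highest in CBs (0.661 against 0.528 CPM in S9-SCA-1+ cells), and *Chrne* and *Musk* were at the floor in S9-SCA-1+ cells. Of the 50-base runs of *Chrna1*, 3.02% occur in other genes.

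**Figure D4:**
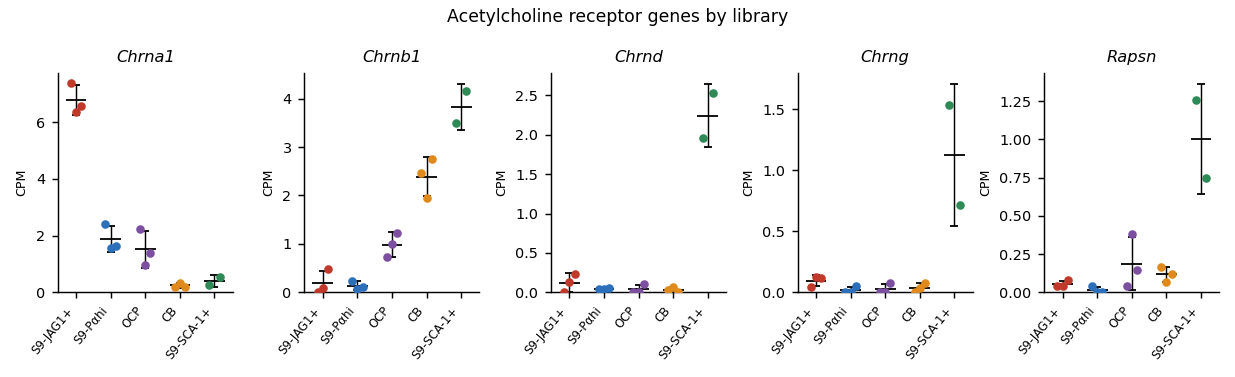
Level in CPM (linear axes from 0) of *Chrna1*, of the partner subunits *Chrnb1*, *Chrnd* and *Chrng* and of *Rapsn* in the 5 populations. Points are libraries, horizontal lines the mean and error bars the SD (n = 3, or n = 2 for S9-SCA-1+). *Chrna1* was highest in the 3 S9-JAG1+ libraries, while *Chrnb1*, *Chrnd*, *Chrng* and *Rapsn* were highest in the 2 S9-SCA-1+ libraries.

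The other comparisons followed the populations from S9-JAG1+ LMPs to CBs. Between S9-Pαhi and S9-JAG1+ LMPs, 2 of the 24 contractile genes were called higher in S9-Pαhi LMPs, *Mybpc1* (log2 fold change 1.80, SE 0.51; edgeR adjusted p = 0.0214) and *Tnnt3* (1.58, SE 0.46; edgeR adjusted p = 0.0247), and 1 lower, *Chrna1* (-1.85, SE 0.30; edgeR adjusted p = 0.000455). Of all tested genes 4.42% were called higher and 2.58% lower. The counts behind the first pair were small: *Mybpc1* had 25, 23 and 8 counts against 6, 2 and 8, and *Tnnt3* 11, 7 and 9 against 4, 2 and 3. When only these 2 populations were fitted, *Mybpc1* and *Tnnt3* did not pass the filter on low counts. Without S9-Pαhi replicate 2, 2 contractile genes were called lower in place of 1.

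Between OCPs and S9-Pαhi LMPs, 2 contractile genes were called higher in OCPs and 4 lower, beside 3.48% and 1.36% of all tested genes. *Myh3* (log2 fold change 1.66, SE 0.42; edgeR adjusted p = 0.0192) and *Neb* were higher, and *Des* (-1.56, SE 0.39; edgeR adjusted p = 0.0171), *Mybpc1*, *Tnni1* and *Acta2* lower. *Myh3* and *Des* kept their call whichever library was left out. The other 4 did not: *Neb* rested on OCP replicate 2 (63 counts against 26 and 21; log2 fold change 0.42, edgeR adjusted p = 0.503 without it) and was also not called with S9-Pαhi replicate 1, 2 or 3 left out (adjusted p = 0.181, 0.113 and 0.231). *Mybpc1* was not called without S9-Pαhi replicate 1 or OCP replicate 3 (edgeR adjusted p = 0.135 and 0.114). *Tnni1* was not called without S9-Pαhi replicate 2 or 3 or OCP replicate 2 or 3 (edgeR adjusted p = 0.119, 0.207, 0.111 and 0.143), and *Acta2* not without S9-Pαhi replicate 2 or 3 or OCP replicate 1, 2 or 3 (adjusted p = 0.183, 0.272, 0.117, 0.161 and 0.216).

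Between CBs and OCPs, 5 contractile genes were called higher in CBs (*Mef2c*, *Acta2*, *Actc1*, *Tnnt1*, *Mybph*) and 1 lower (*Chrna1*), beside 6.6% and 1.16% of all tested genes. *Mef2c* had the most counts among them, with a log2 fold change of 2.71 (SE 0.21; edgeR adjusted p = 1.85e-06). *Acta2* differed by 3.37 (SE 0.89; edgeR adjusted p = 0.0132), *Actc1* by 1.74 (SE 0.56; edgeR adjusted p = 0.0339) and *Tnnt1* by 1.69 (SE 0.40; edgeR adjusted p = 0.00742). *Actc1* was not called without OCP replicate 3 or CB replicate 2 (edgeR adjusted p = 0.124 and 0.121), and *Mybph* not without OCP replicate 1 or CB replicate 2 or 3 (0.108, 0.112 and 0.119). *Chrna1* was lower by a log2 fold change of -2.60 (SE 0.40; edgeR adjusted p = 0.000337). The median was 0.55 over the 24 genes and -0.02 over all tested genes. Without OCP replicate 2, 8 contractile genes were called higher in place of 5, and without CB replicate 2, 2 were called lower in place of 1.

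The medians of the contractile genes in the first pair of these steps were 0.05 and 0.13, against 0.00 and 0.02 over all tested genes. Beside the steps, markers of other cell types moved. The chondrocyte list (6 genes) summed to 166 to 224 CPM in S9-Pαhi LMPs, 1329 to 1895 CPM in OCPs and 2008 to 3041 CPM in CBs. Each of the 6 passed as lower in S9-SCA-1+ cells when compared with CBs, beside 13.9% of all tested genes. This list holds *Sox9*, whose reporter was used in the sort, and *Col2a1*, which defines the CBs, so that the sort fixed part of these differences. The neural crest and glia list (7 genes) summed to 10.2 to 13.3 CPM in S9-Pαhi LMPs, 15.3 to 27.3 CPM in OCPs and 29.9 to 36.1 CPM in CBs. Of the 7, 4 passed as higher in OCPs than in S9-Pαhi LMPs, beside 3.48% of all tested genes. The endothelium list (7 genes) summed to 13.6 ± 2.92 CPM (SD, n = 2) in S9-SCA-1+ cells and 3.42 to 3.73 CPM in CBs, and 3 of its 6 tested genes passed as higher in the former. The cardiomyocyte list (10 genes, of which *Myl7*, *Tnni3*, *Tnnt2* and *Myh6* are also among the 40) summed to 3.28 to 4.09 CPM in S9-SCA-1+ cells, 10.9 to 15.1 CPM in CBs and 3.65 to 13.2 CPM in the other libraries. The smooth muscle and pericyte list (9 genes, with *Acta2*) summed to 331 to 506 CPM over all 14 libraries. Their part in the results was not tested.

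Other genes of the same structures were examined in lists. Of 40 further genes of the sarcomere and Z disc, 20 were tested, and 6 were called higher and 1 lower in S9-SCA-1+ cells against the mean of the other 4, beside 4.46% and 6.8% of all tested genes. *Fhl1*, a LIM-domain protein of striated muscle, had 193 ± 3.99 CPM (SD, n = 2) there and 26.4 to 44.7 CPM as means of the others (log2 fold change 2.57, SE 0.07; edgeR adjusted p = 5.77e-12). *Synpo2l*, a Z disc protein, had 7.84 ± 1.62 CPM and means of 0.163 to 2.04 CPM elsewhere (3.83, SE 0.29; edgeR adjusted p = 1.80e-07). *Klhl40*, *Mylk4* and *Myoz1* had 1.33, 0.971 and 0.866 CPM and were at the floor in the other E10.5 populations. They passed the filter on low counts only because of the S9-SCA-1+ libraries, so that a call as lower was not possible for them. The median log2 fold change of this list was 0.40.

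Of 35 genes of excitation-contraction coupling, muscle energy supply and the neuromuscular synapse, 21 were tested, 9 were called higher and 1 lower in the same comparison, with the same shares of all genes as background and a median of 1.05. *Ryr1*, the calcium release channel of skeletal muscle, reached 42.7 ± 3.12 CPM in S9-SCA-1+ cells, with means of 14.5 to 21.1 CPM elsewhere (log2 fold change 1.39, SE 0.13; edgeR adjusted p = 1.66e-06). *Pygm*, the muscle glycogen phosphorylase, had 31.8 ± 2.91 CPM and means of 0.640 to 1.64 CPM elsewhere (4.71, SE 0.23; edgeR adjusted p = 1.36e-09). *Atp2a1*, the calcium pump of fast fibres, had 11.4 CPM and *Jph1*, a junction protein of the calcium stores, 12.7 CPM. *Cacna2d1*, a calcium channel subunit, was lower (14.2 against 35.8 CPM). The genes called higher include *Chrnd*, *Chrng* and *Rapsn*, which passed the filter on low counts only because of the S9-SCA-1+ libraries.

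Of 24 smooth muscle and cytoskeletal contractile genes, 23 were tested, and 1 was called higher (*Lmod1*) and 1 lower (*Mylk*) in S9-SCA-1+ cells, which is close to the 4.46% and 6.8% over all tested genes, with a median of -0.12. Of 20 myogenic regulators, 19 were tested, 14 were called higher and 1 lower, with a median of 5.52. How many of the 19 passed the filter on low counts only because of the S9-SCA-1+ libraries was not determined. For such genes a call as lower was not possible. *Pax3* reached 463 ± 49.3 CPM (n = 2) in S9-SCA-1+ cells, with means of 0.177 to 0.768 CPM elsewhere. These regulators are muscle precursor genes, and several are also in the list of precursor markers.

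In the comparison of CBs with OCPs, 5 of the 20 tested sarcomere and Z disc genes were called higher, 3 of the 21 coupling and synapse genes were called higher and 1 lower, and 7 of the 19 myogenic regulators were called higher and 1 lower, beside 6.6% and 1.16% of all tested genes. *Mymk*, which encodes the fusion protein myomaker, had 28, 23 and 27 counts in CBs, 2, 0 and 9 in OCPs and 0 and 1 in S9-SCA-1+ cells, with a log2 fold change of 2.62 (SE 0.75; edgeR adjusted p = 0.0198) for CBs against OCPs. *Smpx*, a small muscle protein, had 4, 21 and 14 counts in CBs, none in OCPs or S9-SCA-1+ cells and at most 1 elsewhere. Both *Mymk* and *Smpx* passed the filter on low counts only because of the CB libraries. *Myog*, the regulator of muscle differentiation, had 16, 20 and 24 counts in CBs and 3, 3 and 2 in OCPs, beside 100 and 131 in S9-SCA-1+ cells. Among the 40 genes, *Tnnt2* had 6, 6 and 11 counts in CBs and none in S9-SCA-1+ cells. In the other direction, *Eno3*, the muscle enolase, had a mean of 27.4 CPM in CBs and 77.2 CPM in OCPs (-1.49, SE 0.13; edgeR adjusted p = 4.39e-06), and *Pax3* was the regulator called lower (0.177 against 0.747 CPM).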

How the data were processed

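The authors deposited 1 table of raw counts of reads per gene for 14 libraries, with Entrez identifiers and a length for each gene. According to the methods of the study, libraries of poly(A)+ RNA gave single-end reads, which STAR placed on mm10, keeping 1 place for a multi-mapping read. The QuasR function qCount then counted reads by their start in RefSeq mRNA exons. The use of strand is not stated.

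Symbols were taken from RefSeq (GRCm38) for 24374 of 24454 identifiers; the other 80 held 0.358% of the counts. The members and lists of genes were chosen with earlier results of these data known. Genes were filtered with filterByExpr by population (15125 kept, 24 of the 40 contractile genes), totals were scaled with TMM (factors 0.957 to 1.06), and 1 mean per population was fitted to all 14 libraries with edgeR 4.0.16 in R 4.3.3. The quasi-likelihood F test was used, with Benjamini-Hochberg adjustment over all tested genes. Calls needed an adjusted p not above 0.1 and a log2 fold change of 1.2 or more in size. The study used the same numbers, but its methods do not say that its p was adjusted. SEs are the log2 fold change over the root of F. The prior count of the fit was the default of edgeR. A prior count of 2 was used only for the log levels behind the correlations of same-numbered libraries. Each population was labelled as in the sample titles. The procedure was tested on simulated data with changes planted only in genes above a limit of counts, so that test does not cover genes with few counts. All 40 genes are accounted for, and those with a mean of at least 1 CPM in a population are given by library. From each other list at most the 5 called genes with the highest level were named in a comparison. *Chrnd*, *Chrng* and *Rapsn* were named beside *Chrna1* outside this rule. Shared sequence was searched as runs of 50 bases in GENCODE transcripts. Alternatives were DESeq2 1.42.0 size factors, library totals, 2 other filters, the DESeq2 Wald test, other limits, a replicate block, fewer populations in the fit and each library left out. Figures were drawn with matplotlib 3.10.9.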

Additional observations from a re-analysis of the deposited data

How the results depend on the processing

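No call of a contractile gene changed direction. Over the 50 calls of single genes, 835 of 872 alternative values kept the call and 37 lost it, and 39 calls were kept under every alternative in which the gene was tested. Of 170 mean levels under other scaling, 6 moved by more than the SD, by up to 5.87%. For S9-SCA-1+ cells against the other E10.5 populations, 1 gene in place of 2 was called lower with the filter of at least 1 CPM in 2 libraries and with DESeq2. For S9-Pαhi against S9-JAG1+ LMPs, 1 gene was higher with that filter. With only the populations compared in the fit, edgeR called 0 higher, because the 2 genes were no longer tested (3 were higher at an unadjusted p under 0.05). DESeq2 was fitted to all 14 libraries only, where it called 2 higher. With all libraries in the edgeR fit and no limit on the fold, 3 were lower. For OCPs against S9-Pαhi LMPs, 4 were higher with DESeq2 and with no fold limit and 1 with an adjusted p of at most 0.05, a replicate block or only the populations compared. In the same comparison 2 were lower with that p limit or only those populations. For CBs against OCPs, 2 were lower with no filter, and 8 were higher and 2 lower with no fold limit.

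When 1 library at a time was left out, the genes called higher and lower numbered 8 to 9 and 3 to 5 for S9-SCA-1+ cells against the other 4, 9 and 1 to 3 against the E10.5 populations, and 6 and 4 to 5 against CBs. They numbered 2 to 3 and 1 to 2 for S9-Pαhi against S9-JAG1+ LMPs, 1 to 3 and 1 to 3 for OCPs against S9-Pαhi LMPs, and 4 to 8 and 1 to 2 for CBs against OCPs. With 1 S9-SCA-1+ library left, that library is assumed to vary like the other populations.

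Replicate numbers were not treated as pairs, since deviations of same-numbered libraries correlated between -0.164 and 0.235 over 26 pairs, with 3 above 0.1, and 16 of 52 library and population pairs correlated best on the same number. The replicate block took the call from *Neb* in OCPs against S9-Pαhi LMPs (log2 fold change 1.18, edgeR adjusted p = 0.0870) and from no other contractile gene.

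Without a fold limit, the numbers of all genes called higher and lower were 3561 and 3454 (in place of 674 and 1029) for S9-SCA-1+ cells against the other 4, 2849 and 2685 (751 and 827) against the E10.5 populations and 4505 and 5107 (841 and 2100) against CBs. They were 2304 and 1939 (669 and 390) for S9-Pαhi against S9-JAG1+ LMPs, 1779 and 1263 (526 and 206) for OCPs against S9-Pαhi LMPs, and 2769 and 2494 (999 and 176) for CBs against OCPs. Depth limits the 16 untested genes, which had at most 19 counts in any library and could not be compared.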
